A study of Mus musculus with 16 samples.

Results

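The 10 genes described here encode small leucine-rich proteoglycans and other glycoproteins of the extracellular matrix or cell surface: Bgn, Dcn, Lum, Aspn, Fbln1, Fbln2, Tnc, Postn, Sparc and Thy1. They were measured with 15 probes out of 55681 on the array, and each gene was represented by its brightest probe. The genes were chosen with earlier results of these arrays known, because Bgn was higher in aHFSC than in tHFSC, so that difference is given for every gene as a description with no test. Of the 10 genes, 9 passed the filter on dim probes (well above background on at least 2 of 16 arrays), and Lum did not. They stood among 31527 gene rows that passed the same filter.

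Sorted mouse skin epithelial cells were profiled on 16 one-colour arrays, 1 array for each of 16 groups. Hair follicle stem cells (HFSC) were gated for high CD34, high ITGA6 and no Sca1, and cells of the interfollicular epidermis (IFE) for high ITGA6 and high Sca1. HFSC arrays came as a pair, labelled tHFSC and aHFSC, in each of 6 conditions, and the labels do not spell these names out. The young conditions, at 12 weeks, were the control (WT, C57BL/6), the Col17a1 cKO (Col17a1 flox/flox, K15crePR), the aPKCλ cKO (aPKCλ flox/flox, K15crePR), and the hCOL17A1 tg. The aged conditions, at 25 to 26 months, were WT (C57BL/6) and hCOL17A1 tg. IFE was profiled from young and aged mice, each WT and hCOL17A1 tg. The young control, Col17a1 cKO and aPKCλ cKO mice, controls included, are labelled as given RU486, which activates the Cre fusion, at 2.5 mg over 5 days starting at 8 weeks, and the other groups are not. K15crePR is driven by the keratin 15 promoter, which is active in bulge cells, so a deletion is limited to cells with that promoter's activity. The labels record hair plucking 3 days before for the aHFSC arrays of the control and the Col17a1 cKO, and give no plucking note for the other aHFSC arrays. They do not state how many animals gave each array or whether cells were pooled.

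Levels are log2 signals minus the array's own 75th percentile, so 0 marks a signal at that percentile. The share of probes well above background ran from 59.1% on the aged hCOL17A1 aHFSC array to 79.8%. All 8 young HFSC arrays lay on slide 1, and the aged HFSC and IFE arrays on slide 2, so age in HFSC cannot be told apart from slide. The young HFSC arrays thus differ from IFE in slide as well. On slide 2 the aged HFSC arrays lay in row 1 and the IFE arrays in row 2, so population there cannot be told apart from row. On both slides tHFSC arrays lay in columns 1 and 3 and aHFSC arrays in columns 2 and 4, so state within HFSC cannot be told apart from column. Checked against markers, 8 of 9 bulge genes were higher in tHFSC than in IFE (limma adjusted p under 0.05), beside 2.11% of all gene rows. Of the epidermal genes, 5 of 5 were lower, beside 4.33%. In aHFSC, 8 of 9 were higher (1.64% of all gene rows) and 4 of 5 lower (2.68%), with Il33 not passing. Cd34 and Ly6a (Sca1), which are among these genes, encode markers of the sort itself, so they are no independent check. The young hCOL17A1 IFE array stood apart from the other IFE arrays.

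Small leucine-rich proteoglycans are secreted proteins whose leucine-rich repeats bind collagen fibrils. Biglycan (Bgn) and decorin (Dcn) carry chondroitin or dermatan sulfate chains, lumican (Lum) carries keratan sulfate, and asporin (Aspn) is a close relative of both that usually carries no chain. Fibulins, tenascin-C, periostin and SPARC tie collagen, elastic fibres and integrins together or tune how cells adhere to them. In skin, most of these genes are known for strong expression by dermal fibroblasts, and several are also made by cells of the follicle.

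The probes for biglycan and decorin are printed because the results turn on the contrast between these close relatives. Both are in mm9 coordinates and lie on the plus strand. The Bgn probe lies at chrX:70738554-70738613 and starts at base 927 of its transcript in the array's design. The Dcn probe lies at chr10:96980233-96980292. Its first 57 bases are shown, up to the in-frame stop codon in capitals.
Bgn: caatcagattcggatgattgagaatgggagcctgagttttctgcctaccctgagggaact
Dcn: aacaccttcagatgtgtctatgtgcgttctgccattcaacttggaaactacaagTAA
The Bgn probe has 1 open reading frame in its sense strand, and it shares no run longer than 13 bases with any of 55680 other probes on the array. The longest run shared by the Dcn probe was 14 bases. Exon and UTR annotation of these positions was not analysed here.

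Biglycan was higher in aHFSC than in tHFSC in each of the 6 conditions. In tHFSC its level was 0.02 in the young control, -1.13 in the Col17a1 cKO, 1.31 in the aPKCλ cKO, -2.94 in young hCOL17A1, -2.02 in aged WT and -1.63 in aged hCOL17A1. In aHFSC its level was 3.67 in the young control, 3.02 in the Col17a1 cKO, 3.26 in the aPKCλ cKO, 3.05 in young hCOL17A1, 3.78 in aged WT and 3.77 in aged hCOL17A1. The lowest aHFSC array lay 1.71 above the highest tHFSC array, so the populations did not overlap. The aHFSC arrays were close together, within 0.76 of one another, whereas the tHFSC arrays spread over 4.25. The mean difference was 4.49 ± 1.56 (SD, n = 6 conditions), or 22.5-fold, and ranged from 1.94 in the aPKCλ cKO to 5.99 in young hCOL17A1. The fit across all arrays gave 4.49 with an SE of 0.50. In IFE, Bgn was low on all 4 arrays: -2.80 in young WT, -2.91 in young hCOL17A1, -2.82 in aged WT and -2.39 in aged hCOL17A1. The Bgn probe was well above background on all 16 arrays, so these low levels were measured ones.

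**Figure D1:**
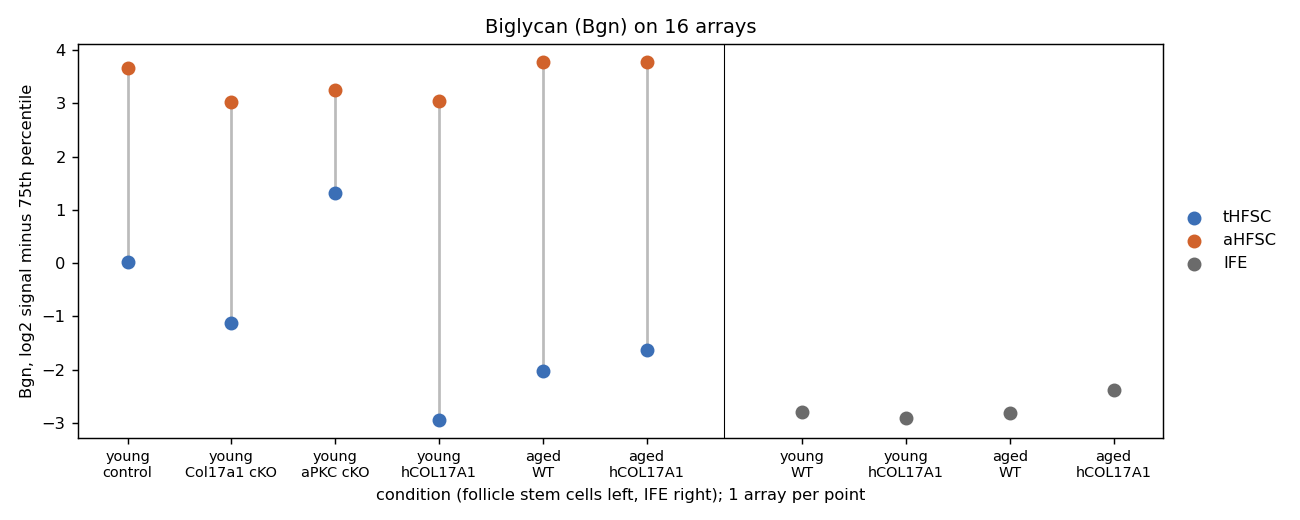
Level of Bgn (log2 signal minus the array's 75th percentile, vertical axis) on each of the 16 arrays by condition (horizontal axis), with tHFSC in blue, aHFSC in orange and IFE in grey, 1 point per array, and a line joining the arrays of a condition. The 6 aHFSC arrays lie between 3.02 and 3.78, the 6 tHFSC arrays between -2.94 and 1.31, and the 4 IFE arrays between -2.91 and -2.39.

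The tHFSC arrays ran from young hCOL17A1 at the bottom through aged WT, aged hCOL17A1, the Col17a1 cKO and the control to the aPKCλ cKO at the top. Each lay within 1.29 of the next, and the moderated residual SD of Bgn in the fit was 0.87, so neighbours in this order cannot be separated with 1 array each. The 3 tHFSC arrays from RU486-treated mice lay between -1.13 and 1.31, above the 3 others, which lay between -2.94 and -1.63. This grouping was seen after the values and was not tested. The lowest tHFSC array, young hCOL17A1 at -2.94, was at the level of IFE.

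The close relatives of biglycan did not share its pattern in level. Decorin ran from -4.26 to -3.33 in tHFSC, from -5.14 to -3.79 in aHFSC and from -6.62 to -3.61 in IFE, so the populations overlapped. It was near the detection limit: the probe cleared background well on 5 of the 5 tHFSC arrays that hold its flag, on 3 of 6 aHFSC arrays and on 2 of 4 IFE arrays. Its aHFSC minus tHFSC difference was -0.51 ± 0.41 (SD, n = 6), and it was lower in aHFSC in 5 conditions. Lumican was well above background on 0 of 16 arrays and no difference is given for it. Asporin differed from biglycan in sign. Its level in tHFSC was 2.81 in the young control, 1.98 in the Col17a1 cKO, 2.29 in the aPKCλ cKO, 2.16 in young hCOL17A1, 2.12 in aged WT and 3.08 in aged hCOL17A1. In aHFSC it was 1.0, 1.22, 1.19, 1.13, -0.94 and 0.25 in the same order. The highest aHFSC array lay 0.76 below the lowest tHFSC array, so these populations did not overlap either. The Aspn difference was -1.76 ± 0.98 (SD, n = 6 conditions), from -3.05 in aged WT to -0.76 in the Col17a1 cKO.

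**Figure D2:**
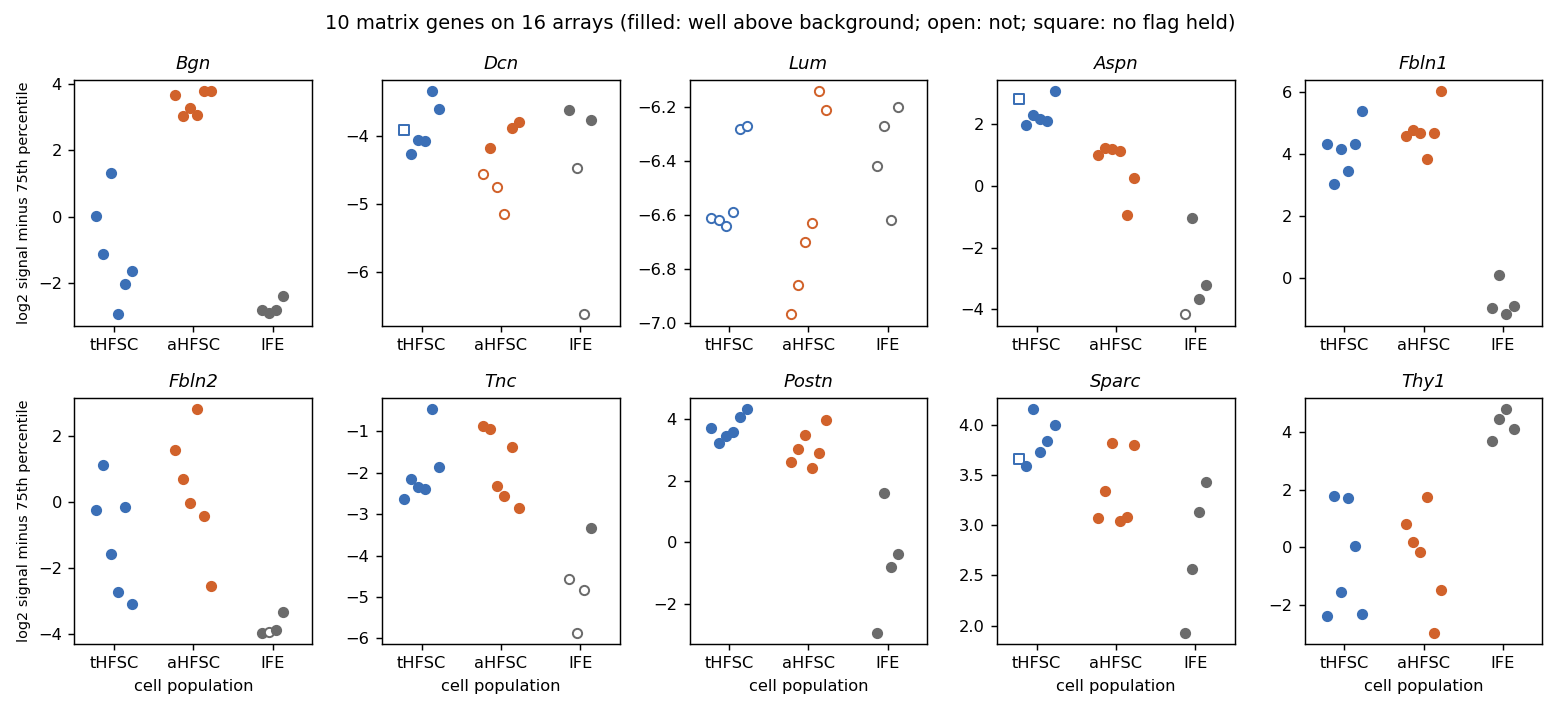
Level of each of the 10 genes (log2 signal minus the 75th percentile, vertical axes, separate scale for each gene) on each array, by cell population (horizontal axes); filled points were well above background, open circles were not, and squares come from the deposited value table with no flag. Bgn separates aHFSC from tHFSC upward and Aspn downward, Lum is open on all 16 arrays, and Thy1 is the gene whose IFE arrays lie highest.

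The fibulins, which bind elastic fibres and basement membranes, were higher in aHFSC in most conditions but overlapped. Fbln1 was higher in 6 of 6 conditions by 0.66 ± 0.55 (SD), with tHFSC arrays between 3.03 and 5.41 and aHFSC arrays between 3.85 and 6.05. Its other probes gave mean differences of 1.31 and 1.32, higher in 5 and 6 conditions. Fbln2 was higher in 4 conditions by a mean of 1.47 ± 2.20 (SD), and its range was wide. In young hCOL17A1 it went from -2.74 in tHFSC to 2.82 in aHFSC, a difference of 5.56, and in the Col17a1 cKO it was lower by 0.42 in aHFSC. The aged hCOL17A1 arrays were the lowest of both HFSC populations for Fbln2, at -3.10 and -2.54.

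The adhesion-modulating glycoproteins were level or slightly lower. Tenascin-C (Tnc), which loosens cell attachment to fibronectin, differed by 0.15 ± 1.12 (SD), higher in 3 conditions and lower in 3. Periostin (Postn), an integrin ligand that binds collagen, was lower in aHFSC in 5 conditions by a mean of -0.65 ± 0.55 (SD). SPARC, a collagen-binding protein, was lower in 6 conditions by -0.47 ± 0.24 (SD), and another probe of the gene was lower in 5 conditions and a further one in 3. Thy1, a surface glycoprotein of fibroblasts, T cells and some keratinocytes, differed by 0.15 ± 2.21 (SD), from -2.99 in aged WT to 3.22 in the young control. Its tHFSC arrays ran from -2.40 to 1.79 and its aHFSC arrays from -2.96 to 1.74. Its highest HFSC arrays were Col17a1 cKO tHFSC and young hCOL17A1 aHFSC and tHFSC. On these, the summed linear signal of 5 epidermal markers was 254.1, 329.2 and 222.7, against 196 to 380 in IFE (units of the 75th percentile). Aged WT tHFSC, with Thy1 at 0.03, had a sum of 30.11, and young control tHFSC, at -2.40, had 80.45. The summed signal of 6 T cell markers on the same arrays, in the same order, was 4.618, 4.412 and 5.077, against 1.73 to 5.4 in IFE. Aged WT tHFSC had 2.917 and young control tHFSC 2.896. The part of epidermal or T cell signal in the Thy1 values was not tested.

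In counts, Bgn and Fbln1 of the 10 genes were higher in aHFSC in 6 of 6 conditions, and Aspn and Sparc were lower in 6 of 6. Over all gene rows, 4.57% were higher and 4.86% lower in 6 of 6, 9.44% in all. Bgn was the 1 gene with no overlap upward and Aspn the 1 gene with no overlap downward, beside 1.16% and 0.5% of all gene rows. In the limma fit, 0.539% of all gene rows passed an adjusted p of 0.05 in this contrast, 0.384% higher and 0.155% lower. The median difference over all gene rows was -0.09. Since this contrast chose the genes, nothing is read from these shares.

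**Figure D3:**
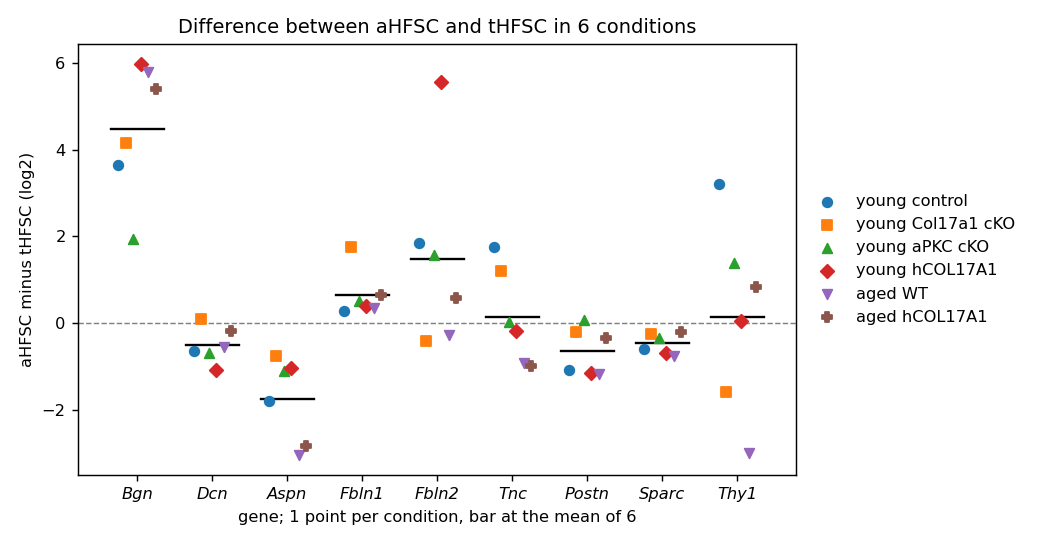
aHFSC minus tHFSC difference (log2, vertical axis) of the 9 genes that passed the filter (horizontal axis), with 1 point for each of the 6 conditions and a bar at their mean; the dashed line marks 0. All 6 points of Bgn lie between 1.94 and 5.99, all 6 of Aspn lie between -3.05 and -0.76, and those of Thy1 spread on both sides of 0.

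Levels of dermal fibroblast markers, which many of these genes are known to accompany, were measured beside them. Of 12 such genes on the array, 8 passed the filter. Of these, 1 changed between the states: Col1a2, a chain of type I collagen, fell in aHFSC by 2.20 ± 0.24 (SE, limma adjusted p = 0.0332), lower in 6 of 6 conditions. Its level ran from 0.79 to 2.92 in tHFSC, from -1.27 to 0.48 in aHFSC and from -2.44 to -1.32 in IFE. Col3a1, a chain of type III collagen, ran from -3.42 to -2.22 in tHFSC and from -3.40 to -2.37 in aHFSC. For Col1a1, the partner chain of Col1a2, 2 of 6 tHFSC, 3 of 6 aHFSC and 0 of 4 IFE arrays were well above background. Pdgfra, the receptor commonly used to mark fibroblasts, exceeded background clearly on 1 of 6 tHFSC arrays (young hCOL17A1) and on 0 of 6 aHFSC arrays. Prrx1, a mesenchymal transcription factor, likewise did so on 1 of 6 tHFSC and 0 of 6 aHFSC arrays. Col6a3 and Dpt were well above background on 0 of 16 arrays. Clec3b, Pi16, Twist2 and Col3a1 cleared background well on 6 of 6 aHFSC and 4 of 4 IFE arrays. Mfap5 did so on 5 of 6 and 4 of 4, and Fap on 1 of 6 and 1 of 4. Median levels in aHFSC and IFE were 0.32 and 0.17 for Clec3b, -1.95 and -1.9 for Pi16, and -2.72 and -2.72 for Twist2. For Col3a1 they were -2.64 and -2.94, and for Mfap5 -2.5 and -3.24. None of these genes passed the test between the states, which 0.539% of all gene rows passed. Mfap5, a microfibril protein, was higher in aHFSC in 5 of 6 conditions (tHFSC -4.07 to -2.68, aHFSC -4.27 to -2.06) and Clec3b in 4 of 6 (0.02 to 0.51 and -0.15 to 0.42), while Twist2 was higher in 2 of 6 and Pi16 in 1 of the 5 conditions with both values.

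Summed over the 12 fibroblast markers, the linear signal, in units of each array's 75th percentile, ran from 3.8 to 10.1 in tHFSC (median 7.52), from 2.46 to 3.61 in aHFSC (median 3.26) and from 2.0 to 2.61 in IFE (median 2.32). It was lower in aHFSC in 6 of 6 conditions. Without Col1a2, the sum over the other 11 ran from 1.84 to 2.55 in tHFSC and from 1.45 to 2.41 in aHFSC and was lower in aHFSC in 3 of 6 conditions. In such bulk samples, fewer cells of a type and less RNA per cell cannot be told apart.

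**Figure D4:**
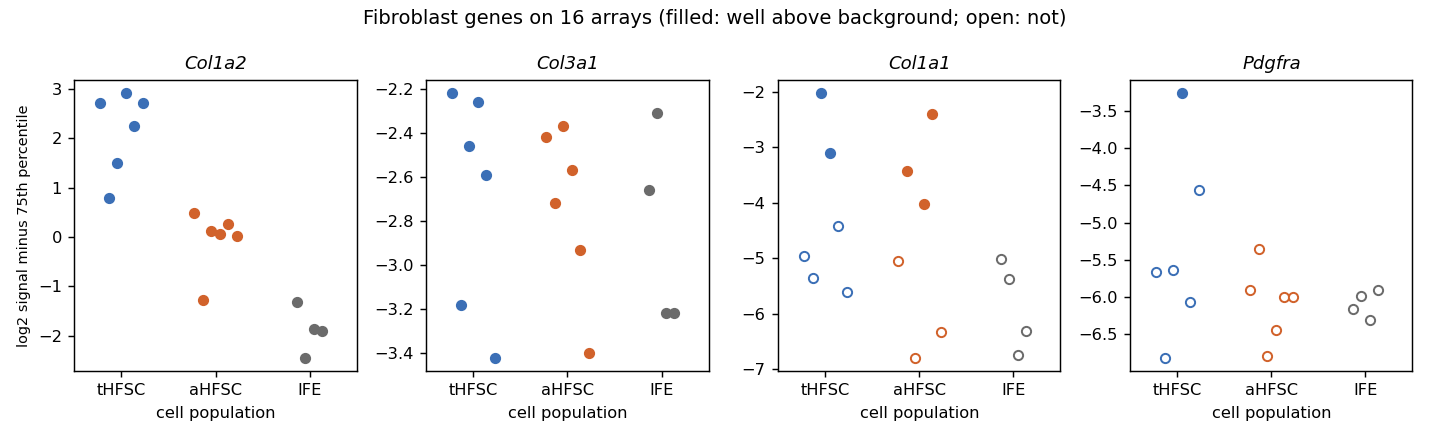
Level (log2 signal minus the 75th percentile, vertical axes, separate scale for each gene) of the fibroblast genes Col1a2, Col3a1, Col1a1 and Pdgfra on each array by cell population (horizontal axes); filled points were well above background and open points were not. The aHFSC arrays of Col1a2 lie between -1.27 and 0.48, below the tHFSC arrays, and all aHFSC points of Pdgfra are open.

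Markers of other stromal cells overlapped between the states. The sum over 11 pericyte and smooth muscle markers ran from 6.28 to 7.81 in tHFSC and from 6.82 to 8.34 in aHFSC. Rgs5, Pdgfrb and Kcnj8 were well above background on 0 of 16 arrays. Tagln, the brightest of the list, was higher in aHFSC in 6 of 6 conditions (0.30 ± 0.15 SE). Acta2 was higher in 5 (0.83 ± 0.37) and Notch3 in 4 (0.83 ± 0.53). Cspg4 was lower in 5 (-0.35 ± 0.19) and Abcc9 in 4 (-0.26 ± 0.36). Of 8 tested markers, 0 passed the limma threshold (adjusted p under 0.05), which 0.539% of all gene rows passed. At that share, 0 calls in lists this short say little. The dermal papilla and sheath sum ran from 1.07 to 6.72 in tHFSC and from 0.85 to 4.28 in aHFSC, with Rspo2 not well above background on any array and 0 of 5 tested markers past the threshold. Crabp1, its brightest gene, ran from -0.89 to 2.64 and from -0.89 to 1.97. The endothelial sum ran from 4.94 to 6.67 and from 5.71 to 6.85, with Cdh5 and Tie1 dim on all arrays and 0 of 6 past the threshold. This sum leans on its brightest gene, Kdr, with medians of 2.22 in tHFSC, 2.32 in aHFSC and 2.25 in IFE. Egfl7 was higher in aHFSC in 4 of 6 conditions (1.33 ± 0.85 SE) and Tek lower in 6 of 6 (-0.94 ± 0.24). The sum over 10 cell cycle markers did not overlap between the states, from 47.9 to 78.6 in tHFSC and from 135 to 244 in aHFSC. Of these markers, 6 of 10 rose in aHFSC at a limma adjusted p under 0.05 (Ccna2, Mcm4, Mcm6, Pcna, Rrm2 and Uhrf1), beside 0.384% of all gene rows. The part of the cell cycle markers in the Bgn difference was not tested.

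The genes whose levels across arrays were most like that of Bgn were picked by correlation, with the other genes of the set left out. Of 17841 genes with a symbol and well above background on at least 8 arrays, the highest Pearson r over 16 arrays was that of Lap3, a leucine aminopeptidase, at 0.958. Hk2, hexokinase 2 of glycolysis, followed at 0.957. Hoxb9 had 0.92, Cd24a 0.905, Gpx2 0.902, H4c17 0.891, Gm10324 0.883, and Pxdn, a peroxidase that crosslinks type IV collagen, 0.882. Over the 12 HFSC arrays, the transcription factor Atf5 had 0.97, Anp32b 0.968, the replication licensing factor Cdt1 0.951, Pla2g7 0.95, Hk2 0.941, Lap3 0.94, the centromere protein Sgo2a 0.94 and the histone gene H3c4 0.939. These values are a description: the arrays hold 6 conditions and lie on 2 slides, and the correlations take in the aHFSC-tHFSC gap that chose Bgn. Among the other genes of the set, r with Bgn over the 12 HFSC arrays was -0.76 for Aspn, -0.58 for Postn, -0.52 for Sparc, -0.50 for Dcn, -0.17 for Thy1, -0.01 for Tnc, 0.45 for Fbln1 and 0.40 for Fbln2. Among the fibroblast genes it was -0.83 for Col1a2, -0.52 for Pdgfra, -0.06 for Col1a1 and -0.03 for Col3a1. Over the 6 aHFSC minus tHFSC differences it was -0.79 for Col1a2, -0.27 for Pdgfra, -0.47 for Col3a1 and 0.63 for Col1a1.

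The comparison with IFE is not the one that chose the set, though the genes were chosen with earlier results of these arrays known. Most genes of the set other than Bgn were higher in the follicle cells. In tHFSC against IFE, 5 of the 8 genes tested rose, 1 fell and 2 did not pass the limma test (adjusted p over all gene rows, threshold 0.05). Over all gene rows 6.44% passed it, 2.11% higher and 4.33% lower. In aHFSC against IFE, again 5 of 8 rose and 1 fell, where 4.32% of all gene rows passed, 1.64% higher and 2.68% lower. Both comparisons share the IFE arrays. The young HFSC arrays lay on another slide than IFE, and fewer genes passed within slide 2, as given at the end. Without 1 IFE array, the additive fit sets the IFE level to the mean of 2 arrays. These are young WT and aged hCOL17A1 where young hCOL17A1 or aged WT is left out, and the reverse otherwise. Both omissions of such a pair thus give the same difference.

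Fbln1 differed most firmly. Its level was -0.96 in young WT, 0.09 in young hCOL17A1, -1.17 in aged WT and -0.89 in aged hCOL17A1 IFE, against 3.03 to 6.05 on the 12 HFSC arrays, with no overlap. It was higher by 4.99 ± 0.26 (SE, limma adjusted p = 3.96e-05) in tHFSC and by 5.65 ± 0.26 (adjusted p = 2.74e-05) in aHFSC, and passed under all 31 alternatives in both comparisons. Aspn rose by 5.35 ± 0.50 (SE, limma adjusted p = 0.00074) in tHFSC and by 3.59 ± 0.50 (adjusted p = 0.00575) in aHFSC. Its IFE levels were -4.17, -1.03, -3.67 and -3.21 in the same order, and 3 of those 4 arrays were well above background. Periostin rose by 4.39 ± 0.53 (SE, limma adjusted p = 0.00282) in tHFSC and by 3.74 ± 0.53 (adjusted p = 0.00661) in aHFSC, from IFE levels of -2.93, 1.59, -0.79 and -0.39. The highest IFE value of both Aspn and Postn was on the young hCOL17A1 array.

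Tenascin-C rose by 2.69 ± 0.55 (SE, limma adjusted p = 0.0227) in tHFSC and by 2.84 ± 0.55 (adjusted p = 0.0236) in aHFSC, but was well above background on 1 of 4 IFE arrays. The call in tHFSC was lost without the tHFSC array of young hCOL17A1, aged WT or aged hCOL17A1 or the IFE array of young hCOL17A1 or aged WT (values from 2.0 to 2.61). That in aHFSC was lost without the aHFSC array of the control or young hCOL17A1 or either of these IFE arrays (2.15 to 2.93). With the gene's other probe the differences were 0.62 and 0.65 and did not pass, and with normexp background correction they were 0.59 and 0.68 and did not pass. Fbln2 did not pass in tHFSC (2.43 ± 0.82 SE, limma adjusted p = 0.128) and rose in aHFSC by 3.91 ± 0.82 (adjusted p = 0.0335), a call lost under 16 of 28 alternatives. Among these were leaving out any 1 IFE array, either HFSC array of the control or the aPKCλ cKO, or the aHFSC array of aged WT or aged hCOL17A1 (3.78 to 4.34). In tHFSC, Fbln2 passed without the young hCOL17A1 tHFSC array (3.45) or aHFSC array (2.23). Its IFE arrays lay between -3.96 and -3.32, below all 12 HFSC arrays.

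SPARC rose in tHFSC by 1.0 ± 0.16 (SE, limma adjusted p = 0.00948), and in aHFSC its difference was 0.53 ± 0.16 (adjusted p = 0.122). Its other probes gave 0.92 and 0.55 in tHFSC and did not pass. Decorin did not pass in either (0.84 ± 0.50 SE, adjusted p = 0.404, and 0.32 ± 0.50, adjusted p = 0.798, limma), with 95% intervals from -0.31 to 1.98 and from -0.82 to 1.47. Its sign turned without the young hCOL17A1 or the aged WT IFE array, to -0.10 in tHFSC and -0.61 in aHFSC. In tHFSC it passed without the young WT or the aged hCOL17A1 IFE array, at 1.77 (limma, lowest adjusted p = 0.0277). Either omission in such a pair rests the IFE level on the other pair alone, as given above.

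Thy1 was the 1 gene of the set that fell in both follicle populations. Its IFE levels were 3.67, 4.43, 4.79 and 4.10 in young WT, young hCOL17A1, aged WT and aged hCOL17A1, all above the 12 HFSC arrays, which ran from -2.96 to 1.79. The difference was -4.93 ± 0.83 (SE, limma adjusted p = 0.0111) in tHFSC and -4.78 ± 0.83 (adjusted p = 0.016) in aHFSC. The calls were lost without the IFE array of young hCOL17A1 or aged WT, at -4.57 and -4.42.

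For Bgn the differences from IFE are descriptions, since its tHFSC and aHFSC levels chose it: 1.45 ± 0.59 (SE) in tHFSC and 5.94 ± 0.59 in aHFSC. Its tHFSC and IFE arrays overlapped and its aHFSC and IFE arrays did not. In all, 6 of the 10 genes separated the 12 HFSC from the 4 IFE arrays with no overlap, Aspn, Fbln1, Fbln2, Tnc and Postn above and Thy1 below, beside 3.35% of all gene rows (1.23% above and 2.13% below).

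**Figure D5:**
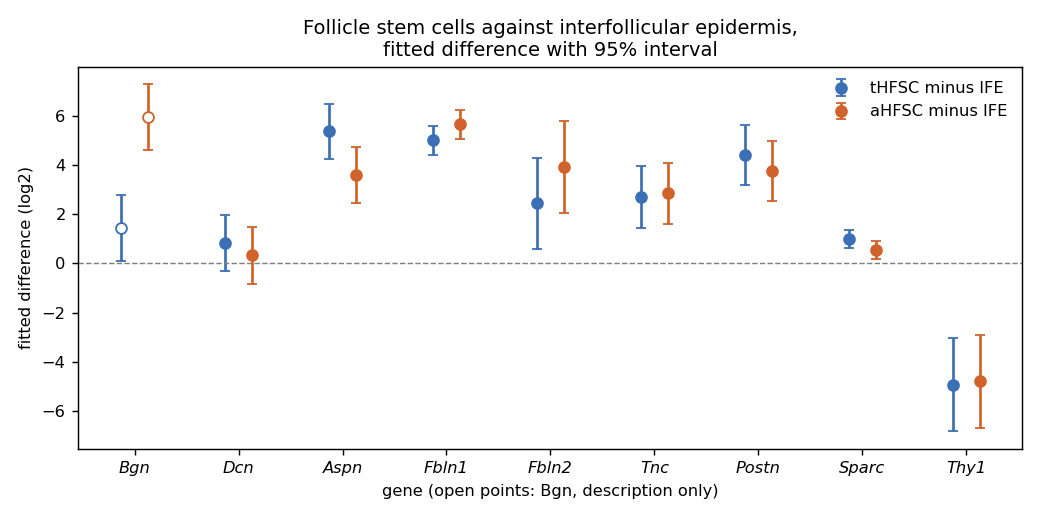
Fitted difference from IFE (log2, vertical axis) of tHFSC (blue) and aHFSC (orange) for the 9 genes that passed the filter (horizontal axis), with the 95% interval of the limma fit as bars; open points mark Bgn, given as a description. Fbln1 lies at 4.99 and 5.65, Thy1 at -4.93 and -4.78, and for Bgn the points lie apart at 1.45 and 5.94.

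Conditions within HFSC were compared over 2 arrays a side, 1 tHFSC and 1 aHFSC. None of the 9 genes passed in the Col17a1 cKO, the aPKCλ cKO or young hCOL17A1 against the control, in aged hCOL17A1 against aged WT, or in aged WT against the young control, and 0% of all gene rows did so in limma. At an unadjusted p under 0.05, the shares of gene rows in these 5 comparisons were 4.05%, 3.44%, 6.79%, 12% and 5.04%, and 0, 1, 0, 1 and 0 of the 9 genes passed. For Bgn the difference was -0.90 ± 0.87 (SE) in the Col17a1 cKO, 0.44 ± 0.87 in the aPKCλ cKO, -1.79 ± 0.87 in young hCOL17A1, -0.96 ± 0.87 in aged WT against young control and 0.19 ± 0.87 in aged hCOL17A1 against aged WT. The 4 young and aged comparisons with the control share its arrays. In young hCOL17A1, Bgn was lower than in the control by 2.96 in tHFSC and by 0.63 in aHFSC. In aged WT it was lower than in the young control by 2.04 in tHFSC and was higher by 0.11 in aHFSC. The young control is labelled as given RU486 and its aHFSC as plucked, while young hCOL17A1 and aged WT carry neither note. These differences cannot be told apart from those treatments. The 95% interval in young hCOL17A1 ran from -3.78 to 0.19. The genes at an unadjusted p under 0.05 were Sparc in the aPKCλ cKO, at 0.63 ± 0.24 (SE, higher in both cell states), and Fbln1 in aged hCOL17A1, at 1.22 ± 0.38 (SE, limma adjusted p = 0.304, higher in both). Another Sparc probe was lower in tHFSC (1.94 against 2.08 in the control). Another Fbln1 probe was lower in aHFSC (2.62 against 3.80 in aged WT). The remaining probe of each gene was higher in both states. The aged hCOL17A1 HFSC arrays also had the lowest shares of probes above background, 68.8% and 59.1%, and the part of this in the Fbln1 value was not tested.

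The aHFSC minus tHFSC difference in aged and in young mice was set side by side. For Bgn it was 5.80 and 5.40 in the aged conditions and 1.94 to 5.99 in the young ones, and the fitted excess of aged over young was 1.67 ± 0.96 (SE), given as a description. The young conditions given RU486 had 3.65 (control), 4.15 (Col17a1 cKO) and 1.94 (aPKCλ cKO), and young hCOL17A1, without it, had 5.99. No aged condition is labelled as given RU486, and the part of RU486 or plucking in this excess was not tested. Aspn had differences of -3.05 and -2.83 in aged mice and of -1.81 to -0.76 in young mice, with a fitted excess of -1.76 ± 0.72 (SE), also a description. Over all gene rows 0% passed the adjusted limma threshold for this interaction, and 6.21% had an unadjusted p under 0.05.

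In IFE, none of the 9 genes passed for age or for the transgene, again with 0% of all gene rows passing in limma and 6.31% and 5.41% at an unadjusted p under 0.05, where 1 of the 9 genes (Sparc) and 2 (Aspn and Postn) passed. SPARC was higher in aged IFE in both genotypes, by 1.20 in WT and 0.87 in hCOL17A1 (1.04 ± 0.24 SE, limma adjusted p = 0.751). Postn was higher with the transgene by 4.52 in young IFE and by 0.40 in aged IFE (2.46 ± 0.79 SE, limma adjusted p = 0.848). Without the aged WT or the aged hCOL17A1 IFE array, the Postn difference is that of the young pair alone, 4.52. Aspn was higher by 3.14 in young and 0.46 in aged IFE (1.80 ± 0.74 SE, limma adjusted p = 0.848). Both differences lay mainly on the young hCOL17A1 IFE array, on which upper follicle markers also summed to 106.1, against 24.02 to 32.92 on the other IFE arrays, and hair germ markers to 59.16 against 22.49 to 26.75. Their part in these values was not tested. Bgn was within 0.52 of itself across these IFE arrays.

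Of the other genes of the matrix pathway, from lists drawn up beside the set, few passed the threshold between the states. Since 0.539% of all gene rows passed it, 0 calls in a short list say little. Of 13 other small leucine-rich proteoglycans tested, 0 passed in any of aHFSC against tHFSC, tHFSC against IFE or aHFSC against IFE (limma, where 0.539%, 6.44% and 4.32% of gene rows passed). In aHFSC against tHFSC, the smallest p were those of Optc (-1.32 ± 0.55 SE, limma adjusted p = 0.366) and Chadl (0.52 ± 0.27, adjusted p = 0.482), and neither passed. In tHFSC against IFE they were those of Ecm2 (1.44 ± 0.72 SE, limma adjusted p = 0.303) and Optc (-1.2 ± 0.64, adjusted p = 0.338). Of 18 genes of fibrillar collagens and their assembly, 1 rose in aHFSC, Col5a1, a chain that starts type I fibrils, by 2.90 ± 0.44 (SE, limma adjusted p = 0.0356, higher in 6 of 6 conditions), and Col1a2 fell. The Col5a1 call was lost under 20 of 29 alternatives, among them leaving out any 1 array, and that of Col1a2 under 10 of 29, among them leaving out any control, Col17a1 cKO, young hCOL17A1 or aged WT HFSC array. Their differences then lay between 2.17 and 4.35 and between -2.37 and -1.95. None of 24 matricellular and elastic fibre genes passed in aHFSC against tHFSC, with the smallest p for Tnxb (-1.10 ± 0.20 SE, limma adjusted p = 0.0561). Hspg2 followed (1.09 ± 0.29 SE, limma adjusted p = 0.163). None passed of 20 enzymes that build chondroitin and dermatan sulfate chains, 17 receptors, 9 TGF-beta genes or 12 proteases and inhibitors. Among the chain enzymes, Chsy1, which extends chondroitin chains, came nearest (1.14 ± 0.34 SE, limma adjusted p = 0.208). Chst3 came next (-0.59 ± 0.26 SE, limma adjusted p = 0.386). Among the proteases, Bmp1, which cleaves the biglycan propeptide, came nearest (1.13 ± 0.22 SE, limma adjusted p = 0.0732) and did not pass. Adamts1 was second (1.55 ± 0.33 SE, limma adjusted p = 0.102), higher in 6 of 6 conditions. Of the receptors, the smallest p was that of Sdc4, a heparan sulfate syndecan (-1.06 ± 0.25 SE, limma adjusted p = 0.121). P2rx7 had the next (-0.51 ± 0.2 SE, limma adjusted p = 0.335). For the TGF-beta genes they were those of Ltbp2 (-1.81 ± 0.42 SE, limma adjusted p = 0.116, lower in 6 of 6 conditions) and Tgfbr2 (0.66 ± 0.26, adjusted p = 0.333).

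Against IFE, where 6.44% of all gene rows passed in tHFSC (2.11% higher and 4.33% lower), the counts in these lists were as follows. Of 18 fibrillar collagen genes 6 rose in tHFSC (Col12a1, Col1a2, Col5a1, Col5a2, Col6a1 and Col6a2) and 0 fell, with a median difference of 0.83 beside -0.05 over all gene rows. Col1a2 rose by 4.41 ± 0.29 (SE, limma adjusted p = 0.000125), Col6a2 by 3.93 ± 0.47 (adjusted p = 0.00272) and Col6a1 by 3.69 ± 0.51 (adjusted p = 0.00485). For Col5a2, 0 of 4 IFE arrays were well above background, and its tHFSC level exceeded the IFE bound at least 6.68-fold (higher in tHFSC, limma adjusted p = 0.0115). Of 24 matricellular and elastic fibre genes, Agrn, Ccn2 and Hspg2 rose and Efemp1, Smoc2 and Tnxb fell. Ccn2, a growth factor-binding matricellular protein, rose by 7.04 ± 0.60 (SE, limma adjusted p = 0.000455), and Efemp1, a fibulin, fell by 3.79 ± 0.35 (adjusted p = 0.000674). Of 9 TGF-beta genes, Ltbp1, Ltbp2 and Tgfb3 rose and Tgfbr2 fell. The latent TGF-beta binding proteins gave 5.61 ± 0.49 (SE, limma adjusted p = 0.000521) for Ltbp2 and 5.16 ± 0.38 (adjusted p = 0.000197) for Ltbp1. Of 17 receptors 1 rose, a share near that over all gene rows: P2rx7, an ATP-gated channel named as a biglycan co-receptor, by 4.64 ± 0.23 (SE, limma adjusted p = 3.45e-05). Of 12 proteases and inhibitors, the inhibitor Timp2 rose by 5.58 ± 0.30 (SE, limma adjusted p = 4.36e-05), and Mmp3 and Bmp1 fell. Of the 20 chain enzymes, Chst15 and Chst3, which add sulfate to chondroitin, fell by 3.04 ± 0.54 and 1.5 ± 0.30 (SE, limma adjusted p = 0.0134 and 0.0212). The calls of Tgfb3, Tgfbr2 and Bmp1 were lost under 21, 16 and 20 of 29 alternatives, among them leaving out the control tHFSC array. Calls were also lost for Chst3 (10 of 28), Mmp3 (8 of 27), Chst15 (7 of 28), Col5a2 (3 of 28), Smoc2 (2 of 28) and Ltbp1 (2 of 29).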

How the data were processed

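Per the labels, RNA of sorted cells was amplified (Ovation Pico WTA), labelled with Cy3 and hybridised to Agilent arrays. Per the file headers, Feature Extraction 11.5.1.1 gave the deposited processed signal, a background-subtracted intensity on a linear scale, and flags for spots well above background, on an mm9 design. A deposited value table holds log2 values. It equalled log2 of the processed intensity minus the array's 75th percentile within 0.05 for at least 99.84% of probes.

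Here control and outlier spots were left out, spots of a probe averaged, log2 taken and the 75th percentile subtracted. The young control tHFSC scanner file holds 52386 of 62976 features, so 9263 probes of that array, among them the Dcn, Aspn and Sparc probes, come from the value table, without flags. Kept were 49792 of 55681 probes, well above background on at least 2 arrays. Each gene took its probe with the highest mean, and probe symbols were updated through a RefSeq gene table (28026 by accession, 3418 by symbol, 295 by synonym, the other 23942 kept the file's name). No spot was saturated. Probe sequences are from the scanner files. No protein sequence table was used here.

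limma 3.58.1 in R 4.3.3 was fitted on all 16 arrays with 6 condition terms, a common aHFSC shift and an intercept, age and transgene term for IFE (6 residual degrees of freedom, 5 with state by age). Tests are two-sided with Benjamini-Hochberg adjustment over 31527 gene rows. With 1 array a group, the spread is the scatter around this additive fit, which may be technical. The script was tested on simulated data. The 10 genes and all lists were chosen with earlier results of these data known. Named besides the set and the fibroblast genes were, per pathway list and contrast, up to 4 genes past the threshold by size, or the 2 of smallest p where none passed, and the 8 genes most like Bgn by Pearson r. Genes called in a list are also listed by name.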

Additional observations from a re-analysis of the deposited data

Results flagged for a closer look

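Within each gene and population, 27 groups of 4 to 6 arrays were checked for an array far from the rest, and 2 were found, where chance gives about 1 in 20. These groups pool conditions, so a distance may belong to the condition. Fbln2 in IFE was -3.32 on the aged hCOL17A1 array, and the other 3 IFE arrays lay between -3.96 and -3.87 (gap over range 0.855, critical value 0.829). Tnc in tHFSC was -0.46 on the aged WT array, and the other 5 tHFSC arrays lay between -2.63 and -1.87 (gap over range 0.647, critical value 0.625).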

How the results depend on the processing

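The aHFSC minus tHFSC difference of Bgn kept its sign under all 29 alternatives, from 3.83 (normexp background correction) to 5.6, and from 4.19 to 5.00 when 1 array was left out. Decorin against IFE turned: in tHFSC to -0.06 with normexp, from -0.10 to 1.77 with 1 array left out and to -0.11 without the aged hCOL17A1 aHFSC and young hCOL17A1 IFE arrays. In aHFSC it turned to -0.18, from -0.61 to 1.26 and to -0.69. The number of genes of the set past the threshold in tHFSC against IFE, 6, was 3 within slide 2 (Aspn, Fbln1 and Thy1) and 4 to 7 with 1 array left out. In aHFSC against IFE it was 3 with probes well above background on all arrays, 2 with only the arrays compared, 3 with unpaired groups, 2 with slide as a block, 2 within slide 2, 3 without the 2 arrays that stand apart, and 3 to 6 with 1 array left out. For the transgene in IFE it was 0 to 1 with 1 array left out. Leaving out 1 IFE array leaves fewer residual degrees of freedom and rests the IFE level on the mean of 2 arrays. The cause of the other changes was not tested. Calls were lost for Fbln2 in aHFSC (16 of 28 alternatives), Tnc in tHFSC and aHFSC (11 and 12 of 29), Sparc in tHFSC (7 of 31), Thy1 (3 and 4 of 29), Postn (1 and 4 of 29) and Aspn in aHFSC (2 of 27). The other-probe alternatives were chosen after seeing the data. The fit pairs tHFSC and aHFSC arrays by condition. The labels give no replicate numbers, so none could serve as a block. Signal near background limits Dcn, Lum and the IFE levels of Tnc.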
